A study of Homo sapiens with 6 samples.

Results

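Protein synthesis in the cytosol is run by initiation factors (EIF genes) and elongation factors (EEF genes). Initiation factors recruit the small ribosomal subunit to the capped end of an mRNA, scan for the start codon and join the large subunit. Elongation factors then deliver aminoacyl-tRNAs and move the ribosome along. Many of these factors work as complexes whose subunits are encoded by separate genes, and several have paralogs used in particular tissues.

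The genes described here are those whose symbols start with EIF and a number 1 to 6, or with EEF1 or EEF2. The kinases of EIF2, the EIF4E-binding proteins, the EEF1A lysine methyltransferases and pseudogenes were left out. The rule found 56 of the 17211 genes in the deposited table. Of these, 52 encode translation factors or close relatives, 2 encode enzymes that modify EEF2, and 2 are RNA genes that only carry the prefix. EEF1G, which encodes another EEF1 subunit, was not analysed here.

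RNA was sequenced from CAOV2, a human ovarian cancer line that the labels also call primary cells. In 3 libraries the cells had received siRNA against TAZ (siTAZ), and in 3 libraries a non-targeting siRNA (siNT). In both groups cells were transfected with 100 pmol of siRNA for 2 days and collected on day 3. TAZ, the product of WWTR1, is a coactivator of transcription held in check by the Hippo pathway. The siRNA was the only treatment named, no genetic change is named for either group, and a single line was used. The labels call the replicates biological without naming separate thaws or days, so each p-value reflects only how far these 6 libraries differ among themselves, part of which may be technical.

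Values are reads divided by a size factor for each library, as the authors deposited them. Reads in genes numbered 28458503 to 34488196 per siTAZ library and 25478595 to 28928432 per siNT library. Replicate 1 of each group stood furthest from its fellows: in siTAZ its counts gave a chi-square per degree of freedom of 8.10 and 7.15, against 2.80 between the others, and in siNT 6.30 and 5.18, against 2.64. Without siTAZ replicate 1, or without siNT replicate 1, 30 of the 56 members fell and 2 rose. WWTR1 stood at 242, 277 and 280 in the siTAZ libraries, against 4359, 4217 and 4258 in the siNT libraries (log2 fold change -4.0, limma adjusted p = 8e-17). All 6 epithelial markers were listed, with sums of 92338 to 100591 in siTAZ and 96330 to 104749 in siNT, but each of them changed (limma adjusted p = 0.0084 or lower). KRT7 averaged 8604 in siTAZ and 22847 in siNT, and KRT18 also fell, 1.23-fold. KRT8, KRT19, CDH1 and EPCAM rose 1.12-fold, 1.59-fold, 2.27-fold and 2.72-fold. The ovarian epithelial markers PAX8 and MUC16 were scarce, at 18.2 and 7.98 in siTAZ and 28.8 and 11.9 in siNT, and did not pass. MSLN was near the floor, at 7.64 in siTAZ and 2.63 in siNT, and was called higher (limma adjusted p = 0.043). WT1 was not analysed. Of 4 leukocyte markers only CD68 and CD14 were listed, with summed values of 159 to 172 in siTAZ and 114 to 126 in siNT. CD14 rose 1.85-fold (limma adjusted p = 4e-05) and CD68 did not pass. Of 5 fibroblast markers 4 were listed, with sums of 3972 to 4603 in siTAZ and 4012 to 4662 in siNT, most of it LUM, which averaged 3885 and 3797. LUM and COL1A1 did not pass. COL1A2 averaged 1.3 in siTAZ and 12.6 in siNT, and PDGFRB 34.2 and 10.1 (limma adjusted p = 0.00033 and 0.00021). No endothelial marker of the 3 looked for was listed. The part of other cells in the results was not tested.

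Translation factor transcripts were mostly lower after TAZ silencing, by small amounts. Of the 56 members, 31 fell, 2 rose and 23 did not pass the test (limma across all genes, Benjamini-Hochberg adjusted p at a threshold of 0.05). The median log2 fold change (siTAZ over siNT) was -0.17, against 0.00 over all 17204 genes tested. Of all genes tested, 27.5% were called lower and 28.3% higher, so 55.8% were called in either direction. The members are more abundant than most genes: 42 of the 56 had a mean of 1000 or more. Among all genes at that level, 68.3% were called, 38.4% lower and 30.0% higher, and their median was -0.04. Among the 1313 genes with a mean of 5000 or more, which included 24 members, 70.4% were called, 45.7% lower and 24.8% higher, and the median was -0.09. All 3 siTAZ libraries lay below all 3 siNT libraries in 33 members and above them in 2, against 30.3% and 31.1% of all genes tested (61.4% in either direction). No member changed by 2-fold or more on the log2(value + 1) scale, while 727 genes fell and 1246 rose by that much. Of the 31 falls, 9 were of 25% or more and 18 were of under 20%. In bulk RNA, fewer cells with a transcript and less of it per cell cannot be told apart.

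All members together took 1.54%, 1.49% and 1.51% of the reads in the siTAZ libraries, against 1.65%, 1.68% and 1.69% in the siNT libraries. The groups did not overlap (exact permutation test, two-sided p = 0.1, the smallest that 3 against 3 allows). EEF2 alone supplied 26.2% to 27.6% of the members' reads in siTAZ and 23.8% to 25.4% in siNT. Without EEF2 the other 55 members took 1.10% to 1.11% of reads in siTAZ and 1.26% to 1.27% in siNT.

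**Figure D1:**
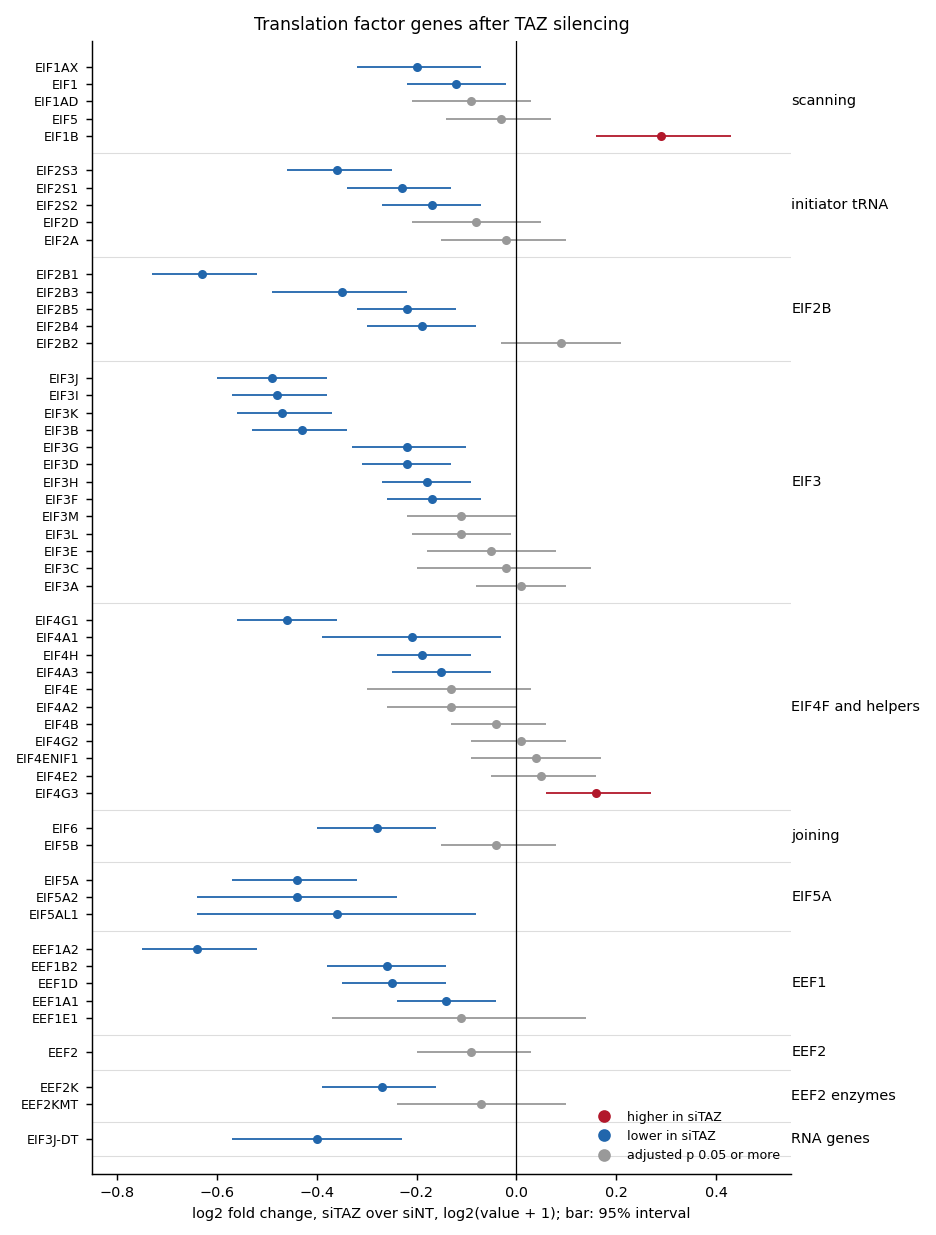
Log2 fold change of each member, siTAZ over siNT, on the x axis, with members grouped by role down the page; points are limma estimates, bars 95% intervals, blue lower, red higher and grey not past the test. The 3 members with a mean under 50 (EIF2S3B, EIF4E3 and EIF5-DT) are left out for their wide intervals. Most points lie left of 0, and on the right only EIF1B and EIF4G3 are called; with library-total scaling EIF2B2 was also called there and 25 members were called on the left.

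Many mRNAs of the translation apparatus begin with a C followed by a run of pyrimidines, the terminal oligopyrimidine (TOP) motif, through which mTORC1 signalling and the binding protein LARP1 are known to control their translation. Start windows were taken from a table of RefSeq starts (GRCh38.p14) that held 47 of the 56 members. The other 9, EEF1A2 among them, are outside the sequence counts given here. A C followed by at least 4 pyrimidines (C or T) at an annotated start was found in 13 of these 47, or 27.7%. The same was true of 5.14% of all 27305 genes in the RefSeq table and of 7.17% of those named in the deposited table. The windows below show 8 members with such a start that fall on both sides of the test. Each has 15 bases before the start and 15 from it on the transcribed strand, and capitals mark the unbroken pyrimidine run from the first base of the transcript, as far as the window reaches.
EEF1A1, chr6:73521018-73521047, minus strand: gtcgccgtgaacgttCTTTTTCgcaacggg
EEF1B2, chr2:206159880-206159909, plus strand: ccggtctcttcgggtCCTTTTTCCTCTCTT
EIF2S3, chrX:24054941-24054970, plus strand: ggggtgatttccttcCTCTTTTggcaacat
EIF3D, chr22:36529152-36529181, minus strand: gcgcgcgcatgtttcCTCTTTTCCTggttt
EIF3K, chr19:38619173-38619202, plus strand: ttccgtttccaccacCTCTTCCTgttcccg
EEF2, chr19:3985449-3985478, minus strand: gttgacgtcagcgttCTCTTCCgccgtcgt
EIF4B, chr12:53006441-53006470, plus strand: ttgcctcatccgggtCTTTTgcgttctctt
EIF2A, chr3:150546772-150546801, plus strand: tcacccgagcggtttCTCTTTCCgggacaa

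The first 5 of these fell and the last 3 did not pass the test. Over all members with a start window, a pyrimidine start was present in 6 of the 26 that fell, in 7 of the 19 that did not pass and in 0 of the 2 that rose. Of 2 members with larger falls, EIF2B1 and EIF3I, the windows are shown for contrast; neither met the rule, so neither has capitals.
EIF2B1, chr12:123633672-123633701, minus strand: gaggggtacggaagtgcgccggaagtgggg
EIF3I, chr1:32222392-32222421, plus strand: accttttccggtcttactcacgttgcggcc

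TAZ acts on DNA through TEAD factors, whose short motif is GGAATG, or CATTCC on the other strand. In windows of 250 bases before to 50 after the start, one or the other was found in 8 of the 47 members (17.0%) and in 16.7% of all genes in the RefSeq table. Of the 8 members with the motif, EEF1B2, EIF2B4 and EIF4G1 fell, EIF4G3 rose, and EIF3M, EIF4E3, EIF4G2 and EIF5 did not pass. The E-box CACGTG, which reads the same on both strands and is bound by MYC, was found in 11 of 47 (23.4%), against 8.77% of all genes and 12.2% of those named in the deposited table. It was present in 8 of the 26 members that fell, in 2 of the 19 that did not pass and in 1 of the 2 that rose, EIF1B. These matches describe letters in a window and not binding.

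Among the scanning factors, which hold the small subunit open while it searches for the start codon, the paralogs EIF1 and EIF1B differed. EIF1B had values of 996, 1108 and 1086 in siTAZ, against 819, 878 and 903 in siNT. All 3 siTAZ libraries were higher, and the rise was 1 of the 2 called among the members (log2 fold change 0.29, SE 0.064, limma adjusted p = 0.00079). EIF1, the main start-codon selection factor, had values of 10061, 9093 and 9603 in siTAZ and 10078, 10382 and 10815 in siNT. Its groups touched closely but did not overlap, and it fell 1.09-fold (limma adjusted p = 0.042). It did not pass with edgeR (adjusted p = 0.051), with library-total scaling (0.21) or when siTAZ replicate 2 or 3 or siNT replicate 2 or 3 was left out (0.09 to 0.22). The adjusted p ranged from 0.0065 to 0.22 over 15 alternatives. EIF1B made up 9.01%, 10.9% and 10.2% of the pair's reads in siTAZ, against 7.51%, 7.79% and 7.70% in siNT. The shares did not overlap (exact permutation test, two-sided p = 0.1).

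EIF1AX, which binds the ribosomal A site during scanning, fell to 1081 ± 62.6 in siTAZ against 1238 ± 39.9 in siNT (SD, n = 3 each; log2 fold change -0.20, limma adjusted p = 0.01), a call lost with library-total scaling (0.058). EIF5, which triggers GTP hydrolysis by EIF2 at the start codon, had values of 9976, 10495 and 10853 in siTAZ and 11162, 10171 and 10705 in siNT. These overlapped, and the 95% interval of the log2 difference was -0.14 to 0.07 (limma adjusted p = 0.60). EIF1AD, a protein with an EIF1A-like domain, had groups that did not overlap but did not pass (1281 ± 17.7 in siTAZ, 1366 ± 71.1 in siNT, limma adjusted p = 0.17).

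EIF2, made of 3 subunits, carries the initiator tRNA, and all its subunit transcripts fell. Of all genes tested 27.5% were called lower, and of those with a mean of 1000 or more 38.4%. EIF2S3, the GTP-binding gamma subunit, stood at 4249, 4584 and 4548 in siTAZ, against 5955, 5488 and 5715 in siNT. The groups lay well apart (log2 fold change -0.36, SE 0.049, limma adjusted p = 8.8e-06). EIF2S1, the alpha subunit that stress kinases phosphorylate, fell 1.18-fold (limma adjusted p = 0.00071), and EIF2S2, the beta subunit, fell 1.12-fold (limma adjusted p = 0.0056). Per kb of exonic sequence, EIF2S2 stood at 1561 ± 49.2 in siTAZ and 1755 ± 55.8 in siNT, EIF2S3 at 1285 ± 53 and 1647 ± 67.3, and EIF2S1 at 806 ± 26.3 and 948 ± 47.4 (SD, n = 3 each). The order of the 3 was the same in both groups. Exonic length here is the union of all annotated exons of a gene, so every ranking of genes per kb depends on the annotation. EIF2A and EIF2D, which can bring initiator tRNA without EIF2, did not pass, with 95% intervals of -0.15 to 0.10 and -0.21 to 0.05 in log2. EIF2S3B, a retrocopy of EIF2S3, was barely detected, at 6.23 to 16.2 in siTAZ and 1.21 to 10.5 in siNT.

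EIF2B recharges EIF2 with GTP and is the complex that phosphorylated EIF2 blocks. Of its 5 subunits, 4 fell and 1 did not pass, where 27.5% of all genes tested were called lower. EIF2B1, the alpha subunit, which belongs to the regulatory part of the complex, stood at 1231, 1249 and 1232 in siTAZ, against 1924, 1899 and 1915 in siNT. Replicates of a group lay close together and the groups far apart (1.55-fold lower, log2 fold change -0.63, SE 0.050, limma adjusted p = 1.5e-08). EIF2B2, the beta subunit of the same regulatory part, had values of 1678, 1535 and 1580 in siTAZ and 1464, 1579 and 1467 in siNT. Its groups overlapped (95% interval -0.03 to 0.21, limma adjusted p = 0.20), and it passed, as higher, only with library-total scaling (adjusted p = 0.04; range 0.04 to 0.46). EIF2B3, the gamma subunit, fell 1.28-fold, EIF2B5, the catalytic epsilon subunit, 1.16-fold, and EIF2B4, the delta subunit, 1.14-fold. EIF2B1 had the highest level per kb in siNT, at 527 ± 3.38, but in siTAZ it stood at 341 ± 2.83, below EIF2B4 at 389 ± 7.12 (444 ± 19 in siNT). The 15.6% of EIF2B1 exonic bases that overlap DDX55 or GTF2H3 on the opposite strand could carry reads of those genes if strand was not used. The same holds for the 23.6% of EIF2B2 exonic bases that overlap other genes on the opposite strand. The sources used here do not give the strand setting.

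EIF3 is the largest initiation complex and bridges the small subunit to the mRNA-bound factors. Of its 13 subunit genes listed, 8 fell, 0 rose and 5 did not pass, against 27.5% lower and 28.3% higher of all genes tested. The median log2 fold change of the 13 was -0.18. EIF3J, a loosely bound subunit, had values of 3530, 3830 and 3789 in siTAZ, against 5557, 5085 and 5051 in siNT. EIF3I had 5786, 5533 and 5599 in siTAZ, against 7603, 7907 and 8081 in siNT. EIF3K had 5341, 5004 and 5189 in siTAZ, against 6910, 7197 and 7354 in siNT. In all of these the lowest siNT library stood far above the highest siTAZ library, with falls of 1.41-fold, 1.39-fold and 1.38-fold (limma adjusted p = 4.2e-07, 1.1e-07 and 2.1e-07).

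EIF3B, a scaffold subunit that binds EIF3I and EIF3G, had 16750, 16137 and 16285 in siTAZ, against 21418, 22290 and 22649 in siNT. It fell 1.35-fold (95% interval of the log2 difference -0.53 to -0.34, limma adjusted p = 2.8e-07). EIF3A, the other core scaffold, had 13175, 13692 and 13112 in siTAZ and 13176, 12960 and 13467 in siNT. The groups overlapped, and the 95% interval of its log2 difference was -0.08 to 0.10; the difference between the genes was not tested. EIF3D, EIF3G, EIF3H and EIF3F fell by 1.17-fold, 1.16-fold, 1.13-fold and 1.12-fold. EIF3L, EIF3M and EIF3E had log2 fold changes of -0.11, -0.11 and -0.05 and did not pass. EIF3L lay at the threshold (limma adjusted p = 0.051, range 0.043 to 0.30 over 15 alternatives); 41.1% of its exonic bases overlap another gene on the same strand. EIF3C had only 261 to 277 in siTAZ and 268 to 282 in siNT, or 38.6 ± 1.2 and 39.2 ± 0.992 per kb. It has a near-identical copy, EIF3CL, so its level is uncertain.

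**Figure D2:**
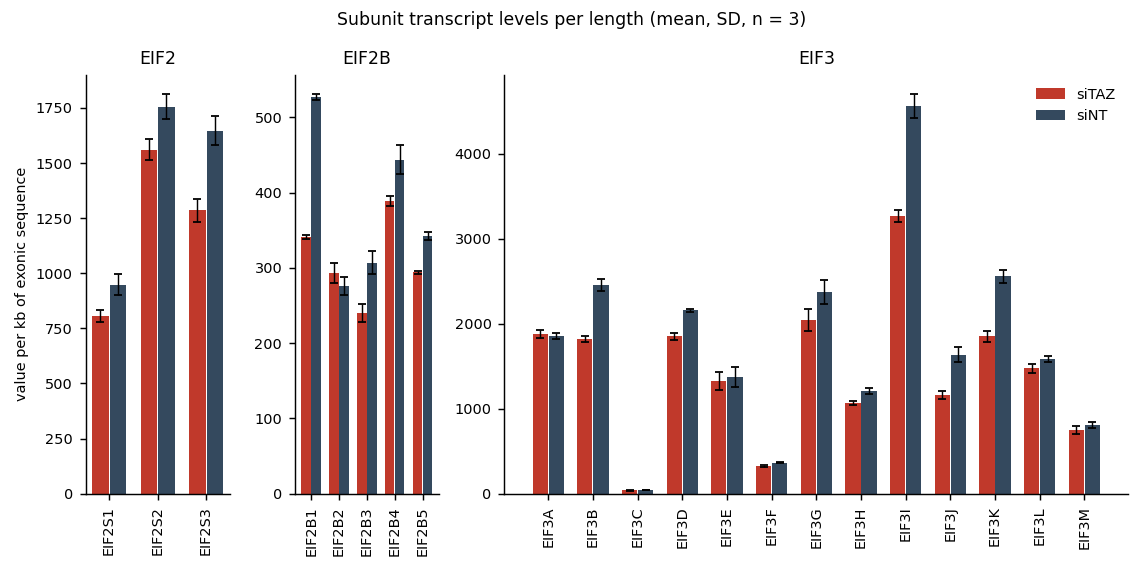
Deposited value per kb of exonic sequence (y axis, linear) for the subunits of EIF2, EIF2B and EIF3 on the x axis; bars are means of 3 libraries, siTAZ left and siNT right, and whiskers SDs. EIF3I is the tallest EIF3 bar, at 3269 in siTAZ and 4559 in siNT, while the EIF3A bars are level at 1877 and 1859. Heights compared between genes depend on the annotated exonic length.

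EIF4F joins the cap-binding protein EIF4E, the helicase EIF4A and the scaffold EIF4G. Of 12 genes of EIF4F and its helpers, 4 fell, 1 rose and 7 did not pass, against 27.5% lower and 28.3% higher of all genes tested. EIF4G1, the main scaffold, stood at 23903, 22958 and 23054 in siTAZ, against 30726, 31965 and 33496 in siNT. The siTAZ libraries were tightly grouped below all siNT libraries (1.38-fold lower, log2 fold change -0.46, SE 0.047, limma adjusted p = 2.7e-07). EIF4G3, a paralog able to take its place, had 4828, 5215 and 5093 in siTAZ, against 4626, 4273 and 4604 in siNT. It rose by a log2 fold change of 0.16 (limma adjusted p = 0.0092), a call that was lost without siTAZ replicate 2 (0.058) or siNT replicate 2 (0.066). EIF4G3 made up 16.8%, 18.5% and 18.1% of the reads of the pair in siTAZ, against 13.1%, 11.8% and 12.1% in siNT. The shares did not overlap (exact permutation test, two-sided p = 0.1). Per kb the EIF4G3 share was 15.7% ± 0.804 in siTAZ and 10.8% ± 0.605 in siNT.

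EIF4G2 (DAP5), a relative of EIF4G that lacks the EIF4E-binding part, was the second most abundant member by reads. It had 40441, 41515 and 42555 in siTAZ and 41997, 40285 and 41589 in siNT. The groups overlapped, and the 95% interval of the log2 difference was -0.09 to 0.10. EIF4E itself had 524, 525 and 563 in siTAZ and 658, 556 and 561 in siNT (95% interval -0.30 to 0.03, limma adjusted p = 0.15). EIF4E2, a cap-binding relative, and EIF4ENIF1, which carries EIF4E into the nucleus, did not pass, and EIF4E3 was near the floor at 5.24 to 13.6 over the 6 libraries.

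The helicase has a pair of paralogs here. EIF4A2 had 4293, 4815 and 4619 in siTAZ and 5495, 4701 and 4836 in siNT. EIF4A1 had 366, 400 and 326 in siTAZ, against 409, 424 and 428 in siNT. EIF4A2 overlapped between groups and did not pass (limma adjusted p = 0.077), though it passed as lower without siNT replicate 2 (0.04). EIF4A1 passed as lower (limma adjusted p = 0.04), but not with DESeq2 (0.08), with library-total scaling (0.12) or without siTAZ replicate 3 (0.22), siNT replicate 2 (0.091) or siNT replicate 3 (0.10). Its range over 15 alternatives was 0.018 to 0.22. In GENCODE 29, 48.6% of its exonic bases are shared with other genes on the same strand, among them the read-through SENP3-EIF4A1. The sources used here do not say how reads in shared exons were counted, so the EIF4A1 level and the EIF4A2 share of the pair (92.1% to 93.4% in siTAZ, 91.7% to 93.1% in siNT) are uncertain. EIF4A3, the helicase of the exon junction complex, fell 1.11-fold (limma adjusted p = 0.012). The call did not hold with library-total scaling (0.075) or without siTAZ replicate 2 (0.063) or siNT replicate 3 (0.055). EIF4H, an EIF4A cofactor, fell 1.14-fold (limma adjusted p = 0.0019). EIF4B, its counterpart with a pyrimidine start, had 8529, 8462 and 8619 in siTAZ and 9013, 8625 and 8616 in siNT (95% interval -0.13 to 0.06).

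EIF5B, the GTPase that joins the subunits, had 7492, 8354 and 8117 in siTAZ and 8738, 7830 and 7989 in siNT. Its groups overlapped, and the 95% interval was -0.15 to 0.08. EIF6, which keeps the large subunit from joining too early and acts in its assembly, had 7496, 6524 and 6796 in siTAZ, against 7929, 8444 and 8893 in siNT. All siTAZ libraries were lower (1.21-fold, limma adjusted p = 0.00042), and 17.4% of its exonic bases overlap another gene on the same strand.

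EIF5A, which relieves ribosomes stalled at prolines and carries the hypusine modification, was the most abundant member per kb after EEF2. It had 20641, 17837 and 17948 in siTAZ, against 23623, 26655 and 26415 in siNT, with replicate 1 the highest in siTAZ and the lowest in siNT. The groups did not overlap, and EIF5A fell 1.36-fold (log2 fold change -0.44, SE 0.060, limma adjusted p = 8.3e-06). EIF5A2, a paralog amplified in some cancers, was scarce, with 215, 251 and 218 in siTAZ and 329, 319 and 283 in siNT. It also fell 1.36-fold (limma adjusted p = 0.00078), and its share of the pair's reads was 1.03% to 1.39% in siTAZ and 1.06% to 1.37% in siNT. Those shares overlapped fully (exact permutation test, two-sided p = 1.0). EIF5AL1, a near-identical retrocopy of EIF5A whose reads can be mixed with those of EIF5A, passed as lower (limma adjusted p = 0.027), a call lost with DESeq2 (0.07), library-total scaling (0.058) and without siTAZ replicate 1 (0.053) or 2 (0.14) or siNT replicate 2 (0.10).

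Of the 5 EEF1 genes, 4 fell, where 27.5% of all genes tested were called lower, and 38.4% of those with a mean of 1000 or more. EEF1A2, the form of the tRNA-delivering GTPase usually confined to muscle and neurons and found raised in some ovarian cancers, had the largest fall of the members with a mean of 50 or more. Its values were 26772, 23642 and 24306 in siTAZ, against 36266, 39773 and 40214 in siNT. The lowest siNT library was well above the highest siTAZ library (1.56-fold lower, log2 fold change -0.64, SE 0.055, limma adjusted p = 4e-08). EEF1A1, the widely expressed form, had 12517, 12739 and 13505 in siTAZ, against 14872, 13737 and 14193 in siNT. It fell 1.10-fold (limma adjusted p = 0.016). The call did not hold with library-total scaling (0.11) or without siTAZ replicate 2 (0.062) or siNT replicate 1 (0.062).

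EEF1A2 made up 68.1%, 65.0% and 64.3% of the reads of the EEF1A pair in siTAZ, against 70.9%, 74.3% and 73.9% in siNT. The shares did not overlap (exact permutation test, two-sided p = 0.1). Per kb, EEF1A2 stood at 5073 ± 336 in siTAZ and 7892 ± 441 in siNT, and EEF1A1 at 2172 ± 87.2 and 2399 ± 96 (SD, n = 3 each). EEF1A1 has many processed copies, of which 17 were listed with a summed value of 712 to 739 in siTAZ and 802 to 841 in siNT. Reads that match several copies may be lost or split, so the EEF1A1 level and the pair's shares are uncertain. The exchange factor subunits EEF1B2 and EEF1D fell 1.20-fold and 1.19-fold (limma adjusted p = 0.00072 and 0.0005). EEF1E1, a scaffold of the tRNA synthetase complex, did not pass and varied widely, at 411 ± 64.8 in siTAZ and 447 ± 85.5 in siNT (SD, n = 3 each).

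EEF2, the translocating GTPase, was the most abundant member, at 29630 ± 1412 per kb in siTAZ and 31445 ± 1669 in siNT (SD, n = 3 each). Its values were 125529, 114360 and 118076 in siTAZ and 118868, 130452 and 130568 in siNT. Replicate 1 was highest in siTAZ and lowest in siNT, so the groups overlapped (95% interval of the log2 difference -0.20 to 0.03, limma adjusted p = 0.20, range 0.056 to 0.60). EEF2K, the kinase that inactivates EEF2, had 1168, 1176 and 1234 in siTAZ, against 1424, 1470 and 1433 in siNT. It fell 1.21-fold with no overlap (limma adjusted p = 0.00033). EEF2KMT, a methyltransferase of EEF2, did not pass. EIF3J-DT, a noncoding RNA divergent from EIF3J, fell 1.32-fold to 273, 296 and 293 in siTAZ, against 381, 393 and 365 in siNT (limma adjusted p = 0.00041). EIF5-DT was near the floor, at 1.84 to 5.97 in siTAZ and 3.21 to 6.28 in siNT.

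**Figure D3:**
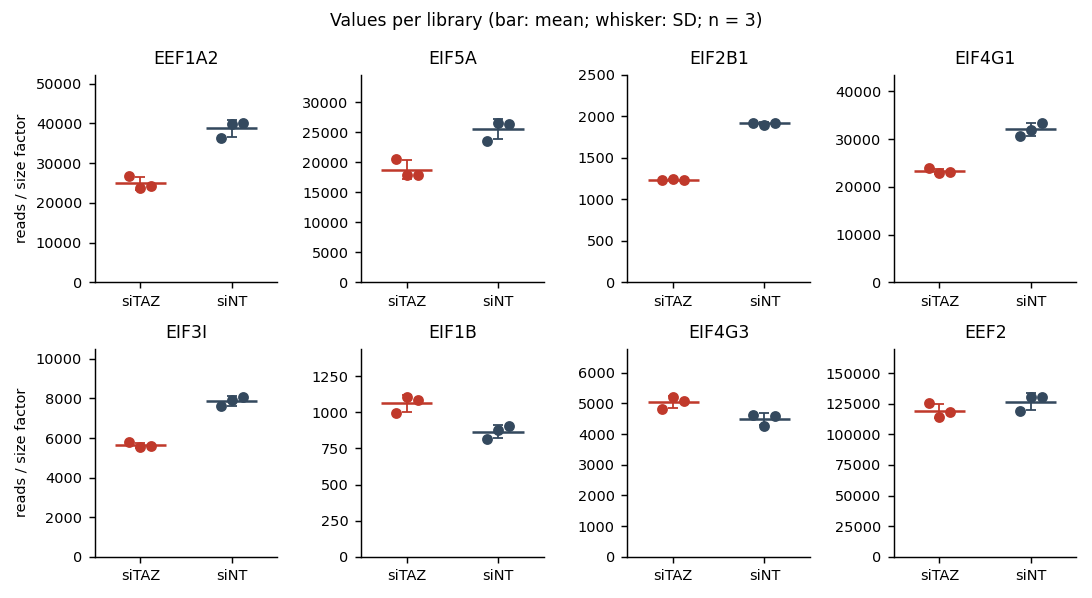
Deposited value (reads divided by size factor, linear y axis from 0) in each library for 8 members, siTAZ left and siNT right; points are libraries, bars means and whiskers SDs (n = 3). The groups are apart in EEF1A2, EIF5A, EIF2B1, EIF4G1 and EIF3I, lower in siTAZ, and in EIF1B and EIF4G3, higher in siTAZ, and they overlap in EEF2.

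**Figure D4:**
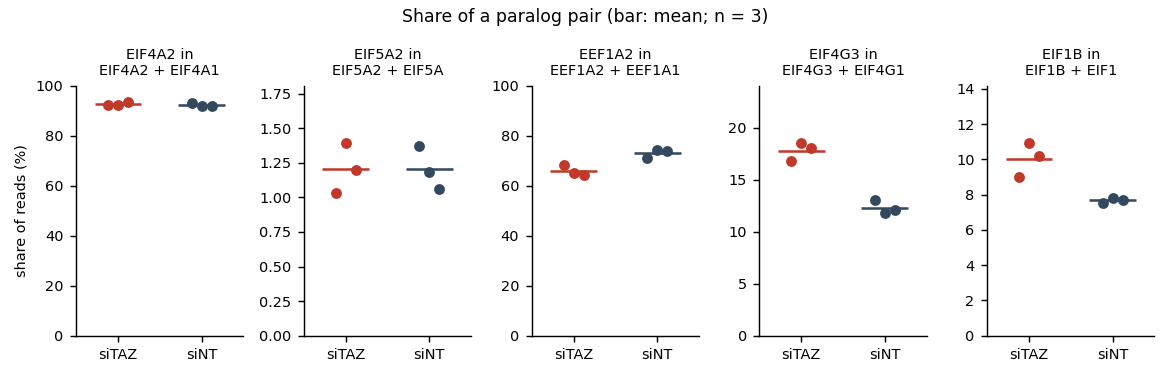
Share of the reads of a paralog pair, in percent (y axis from 0), held by the gene named first, in each library; bars are means, siTAZ left and siNT right (n = 3). The EEF1A2 share averages 65.8% in siTAZ and 73.1% in siNT, the EIF4G3 share 17.8% and 12.3%, and the EIF1B share 10.0% and 7.67%, while the EIF5A2 and EIF4A2 shares overlap.

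The regulators and partners of these factors moved in both directions. Of 57 such genes with a value, 12 rose, 29 fell and 16 did not pass, against 28.3% higher and 27.5% lower of all genes tested. The median log2 fold change of the 57 was -0.15. Among all genes with a mean of 1000 or more, 30.0% were higher and 38.4% lower, and their median was -0.04. EIF2 is switched off by 4 kinases, of which 3 rose. EIF2AK3 (PERK), the endoplasmic reticulum stress kinase, had 1171, 1324 and 1248 in siTAZ, against 839, 806 and 798 in siNT (1.53-fold higher, limma adjusted p = 2.3e-07). EIF2AK1, the heme-regulated kinase, rose 1.32-fold and EIF2AK4 (GCN2), the amino acid sensor, rose by a log2 fold change of 0.13 (limma adjusted p = 1.3e-06 and 0.028). EIF2AK2 (PKR), which responds to double-stranded RNA, did not pass, at 2753 ± 202 in siTAZ and 3032 ± 185 in siNT. PPP1R15A and PPP1CA, which form a phosphatase that reactivates EIF2, fell 1.23-fold and 1.26-fold. PPP1R15B, another phosphatase subunit, averaged 2554 in siTAZ and 2425 in siNT and did not pass (limma adjusted p = 0.22).

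The 2 EIF4E-binding proteins with a value, which compete with EIF4G for EIF4E, moved in opposite directions. EIF4EBP1 had 1772, 1515 and 1646 in siTAZ, against 2381, 2805 and 2758 in siNT, and fell 1.61-fold (limma adjusted p = 2.1e-07). EIF4EBP2 had 9292, 9815 and 10154 in siTAZ, against 6278, 6062 and 6290 in siNT, and rose 1.57-fold (limma adjusted p = 3.8e-09). LARP1, the protein that binds TOP mRNAs, fell 1.24-fold (limma adjusted p = 2.6e-05). In the mTORC1 and S6 kinase list 7 of 10 genes fell, where 27.5% of all genes tested were called lower. The 7 included RHEB, the activating GTPase, and MLST8, a subunit, lower by 1.26-fold and 1.23-fold. Inhibitors of the pathway in the same list went different ways. AKT1S1 (PRAS40) fell 1.16-fold (limma adjusted p = 0.0022), and TSC1 averaged 1208 ± 19.5 in siTAZ and 1118 ± 28.2 in siNT and did not pass (limma adjusted p = 0.092). DEPTOR and TSC2 rose. DEPTOR had 162, 170 and 171 in siTAZ, against 38.7, 41.7 and 32.6 in siNT (4.44-fold, limma adjusted p = 1.6e-09), and TSC2 rose 1.27-fold (limma adjusted p = 3e-05).

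PABPC1, the main cytosolic poly(A)-binding protein, fell 1.12-fold, while its paralog PABPC4 rose 1.26-fold. PAIP2B, an inhibitor of PABPC1, rose 1.84-fold to 435, 524 and 478 in siTAZ, against 246, 281 and 254 in siNT (limma adjusted p = 2.6e-07). In the same list the more abundant PAIP2 averaged 2257 in siTAZ and 2217 in siNT and did not pass (limma adjusted p = 0.68). PAIP1 rose 1.12-fold (limma adjusted p = 0.015). The termination factor ETF1 and the reinitiation factor MCTS1 fell 1.23-fold and 1.32-fold, and GSPT2, a paralog of the release factor GSPT1, rose 1.34-fold. GSPT2 averaged 460 in siTAZ and 344 in siNT. The more abundant GSPT1 averaged 8566 in siTAZ and 8484 in siNT and did not pass (limma adjusted p = 0.81). DHPS, the first enzyme of EIF5A hypusination, fell 1.32-fold (limma adjusted p = 5.1e-06). Of the 12 genes in the list of EIF5A hypusination and EEF modification 9 fell, where 27.5% of all genes tested were called lower. METTL13, which methylates EEF1A, fell 1.22-fold. The rise of EEF1AKMT1, another methyltransferase of EEF1A (limma adjusted p = 0.041), was lost with DESeq2 (0.064) and without any of siTAZ replicates 1 (0.051) and 3 (0.25) and siNT replicates 2 (0.10) and 3 (0.11). Of 9 mitochondrial translation factors 5 fell, where 27.5% of all genes tested were called lower, and 38.4% of those with a mean of 1000 or more. TUFM, the mitochondrial elongation factor Tu, was 1.27-fold and MRRF, a recycling factor, 1.46-fold lower, while MTIF3, an initiation factor, rose 1.21-fold.

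**Figure D5:**
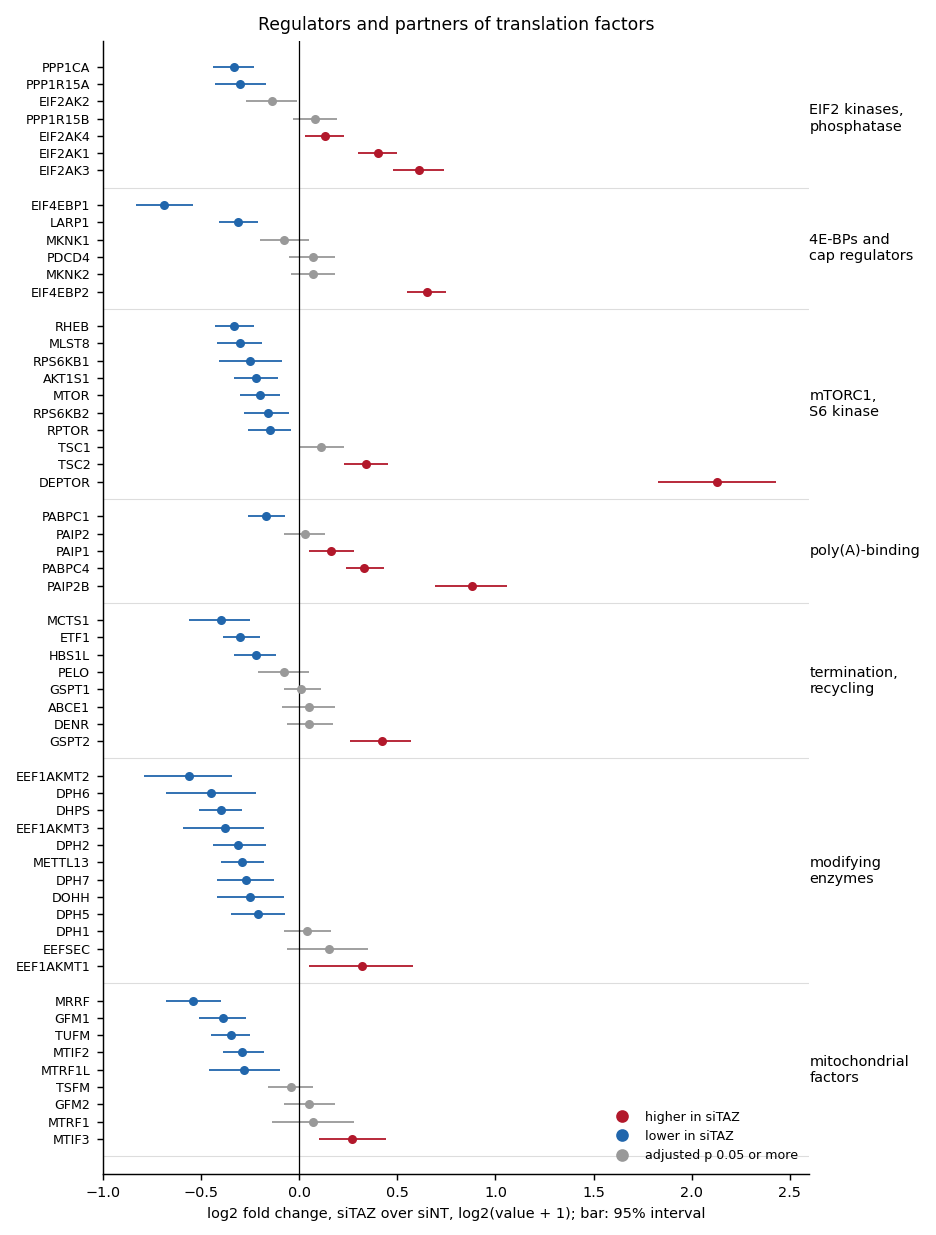
Log2 fold change of 57 regulators and partners, siTAZ over siNT, on the x axis, grouped by list down the page; points are limma estimates, bars 95% intervals, and colours mark genes higher, lower or not past the test. DEPTOR stands farthest right at 2.13 and EIF4EBP1 farthest left at -0.69.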

How the data were processed

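Libraries were made with a stranded mRNA kit from 1 µg of total RNA, per the labels' protocols. FastQC, HISAT2, HTSeq and DESeq2 were used with hg19, per the submitters' processing notes; the sources used here give no version, annotation, strand setting or gene filter. The deposited values are a signal: reads per gene divided by 1 size factor per library (0.8275 to 1.1725). One step per library turned 100% of its values into whole reads (tolerance 0.001 of a read), which gave the reads back.

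Symbols came from a table of Ensembl identifiers (16662 genes) and GENCODE 29 (81 more); 468 stayed unnamed. GENCODE 29 (GRCh38) also gave gene types, exonic lengths and overlaps. Limma 3.58.1 (R 4.3.3, intensity trend) was fitted to log2(value + 1) of the 17204 genes whose mean reached 1. Group was the only term, with Benjamini-Hochberg adjustment over all of them, at a threshold of 0.05. Fold changes in log2 are on that scale, which understates changes of low genes; other folds are ratios of mean values. EdgeR 4.0.16, DESeq2 1.42.0 and voom were run on the recovered reads; edgeR called 4963 genes higher and 4667 lower, and limma 4874 and 4730. All were tested on simulated data. Shares were tested by exact permutation (scipy 1.17.1); other work used Python 3.11.15, pandas 2.3.3, numpy 2.4.6 and matplotlib 3.10.9.

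Replicates of a group differed by more than sampling noise (chi-square per degree of freedom 2.64 to 8.1). The members, lists and tests were chosen with earlier results of these data known. Values per library are given for the most abundant, most raised and most lowered called member of each role, the 8 largest called rises and falls with a mean of at least 50, and 5 paralog pairs; for partners, up to 2 called genes per direction and list are named. EEF1E1, EIF4E, EIF4B, EIF3A and EIF2B2 and other members and partners with values were added after their values were seen.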

Additional observations from a re-analysis of the deposited data

How the results depend on the processing

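The 15 alternatives were pseudocounts of 0.5 and 10, no filter, at least 1 CPM in 3 libraries, library-total scaling, edgeR, DESeq2 and voom on recovered reads, a replicate block, and each library left out in turn. Of the 31 members that fell, 25 were called lower in all of these and 6 lost the call in some (EEF1A1, EIF1, EIF1AX, EIF4A1, EIF4A3 and EIF5AL1). None of the 31 reversed. The count of lower members was 25 with library-total scaling, 30 with edgeR, 29 with DESeq2 and 27 to 30 with a library left out. The count of higher members was 3 with library-total scaling and 1 to 2 with a library left out; without siTAZ replicate 2 or siNT replicate 2 it was 1, since EIF4G3 lost its call. Without 9 members that share or copy other genes' sequence, an alternative added after the data were seen, 26 of 47 fell and 2 rose. Library-total scaling moved the median of all genes to 0.052 and of the members to -0.114 in log2.

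Of the 23 members that did not pass, 12 changed sign in at least 1 alternative and 3 passed in at least 1 (EIF2B2, EIF3L and EIF4A2). With library-total scaling the log2 fold change became 0.02 for EIF5, EIF5B and EIF4B, 0.03 for EIF2A and EIF3C and 0.00 for EIF3E. With a library left out, EIF5 ranged from -0.07 to 0.00, EIF5B from -0.07 to 0.01 and EIF4G2 from -0.01 to 0.03. The siTAZ minus siNT difference in the EIF5A2 share ranged from -0.0877 to 0.0893 percentage points with a library left out. The cause was not tested. The difference in the EIF1B share was 3.80 percentage points per kb and 2.34 in reads; EIF1B has 1.912 kb of exonic sequence and EIF1 3.623 kb, so division by length raises the EIF1B share in both groups.

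Deviations of libraries with the same replicate number correlated at -0.085, -0.022 and 0.006. Those numbers come from the sample titles, and the deposited columns carry other numbers. Equal numbers need not mark a shared experiment, so neither these correlations nor a block on the numbers can decide whether samples were paired. With the replicate block 27 members fell and 2 rose; EEF1A1 (limma adjusted p = 0.077), EIF1 (0.13), EIF4A1 (0.077) and EIF4A3 (0.068) no longer passed, and over all genes 4439 rose and 4262 fell. With 3 libraries a group, shares could not reach a permutation p under 0.1, and the 3 members with a mean under 50 had wide intervals.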
